A study of Mus musculus with 21 samples.

Results

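The 7 genes described here encode the enzymes that carry out and regulate the phosphofructokinase step of glycolysis. They are the phosphofructokinase genes Pfkl, Pfkm and Pfkp, and the genes Pfkfb1, Pfkfb2, Pfkfb3 and Pfkfb4, and they were taken by symbol from the 21000 gene symbols of the count table. RNA sequencing had been done on hematopoietic stem cells (HSCs) of wild-type mice, which the methods of the study define for C57BL/6 mice as CD150+ CD48- Flt3- cells of the Lineage- Sca-1+ c-Kit+ gate, in 21 libraries that form 7 groups of 3. Mice that were 10 weeks old at the start received either PBS or the cytotoxic drug 5-fluorouracil (5-FU, 150 mg/kg, intraperitoneal). They received it either once or 3 times with 21 days between administrations. Mice given 3 administrations were thus older at isolation, so that number of administrations and age cannot be told apart. PBS-treated HSCs were isolated at day 6, 5-FU-treated HSCs at day 6 or at day 21, and the last group, called old, came from untreated mice aged 2 years. There was no PBS group at day 21, so day 21 was set against PBS at day 6. By the methods of the study, the sorting gate of 5-FU-treated mice at day 6 was widened to c-Kit-dim cells and the Mac-1 antibody was left out, so that gate and treatment cannot be told apart at that time.

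Phosphofructokinase phosphorylates fructose 6-phosphate and commits the sugar to glycolysis. Pfkl, Pfkm and Pfkp encode its liver, muscle and platelet isozymes, whose subunits form mixed tetramers. The strongest allosteric activator of the enzyme is a second bisphosphate of fructose, which the PFKFB enzymes make with a kinase domain and remove with a phosphatase domain. PFKFB3 has by far the higher kinase than phosphatase activity, PFKFB2 is the heart isozyme and is activated by phosphorylation, PFKFB1 is known from liver and PFKFB4 from testis. HSCs are known for a quiescent state. Earlier work stressed glycolysis in that state, while the study reports that ATP of HSCs at steady state came more from mitochondria.

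The sequences before the RefSeq transcript starts of Pfkp, Pfkfb2 and Pfkfb3 are shown because the transcripts of Pfkp and Pfkfb2 moved in opposite directions at day 6, and because Pfkfb3 was the most abundant PFKFB transcript in all 21 libraries. They are read on the coding strand from GRCm38.p6, run up to 250 bases before the start, and end where an exon of the gene is annotated. Pfkp has 1 such window, Pfkfb2 has 3 and Pfkfb3 has 2, of which the one with the most matches is printed. Capitals mark CACGTG, the E-box, and ACGTG or GCGTG, the core bound by hypoxia-inducible factors, on either strand, and ACGTG lies within CACGTG.
Pfkp chr13:6648778-6649021, minus strand: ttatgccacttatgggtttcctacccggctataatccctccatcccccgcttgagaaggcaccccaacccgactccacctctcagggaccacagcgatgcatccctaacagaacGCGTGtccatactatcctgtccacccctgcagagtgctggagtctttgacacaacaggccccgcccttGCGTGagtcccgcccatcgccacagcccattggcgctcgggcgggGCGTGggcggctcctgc
Pfkfb2 chr1:130715822-130716071, minus strand: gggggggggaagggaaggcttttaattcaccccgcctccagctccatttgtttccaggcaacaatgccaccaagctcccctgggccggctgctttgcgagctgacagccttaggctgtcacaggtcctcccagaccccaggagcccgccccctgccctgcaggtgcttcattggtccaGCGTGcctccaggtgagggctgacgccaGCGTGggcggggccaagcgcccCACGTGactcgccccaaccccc
Pfkfb3 chr2:11502102-11502340, minus strand: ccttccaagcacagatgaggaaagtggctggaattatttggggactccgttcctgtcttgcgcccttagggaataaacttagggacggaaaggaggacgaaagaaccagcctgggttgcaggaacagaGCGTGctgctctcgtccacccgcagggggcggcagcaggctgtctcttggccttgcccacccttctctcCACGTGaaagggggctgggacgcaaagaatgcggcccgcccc
The printed windows of Pfkfb2 and Pfkfb3 each hold CACGTG once, and their other windows hold none, while 1 of the 4 windows of Pfkm also holds it once. Pfkp holds GCGTG at 3 places and no CACGTG. Of 32851 windows of 250 bases before mouse transcript starts, 6.02% hold CACGTG and 28.2% hold GCGTG, shares that are not comparable with a window picked from several for its matches. A match is a description of letters, and binding was not measured.

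Total counts ranged from 22184885 to 38649033 per library, so that a floor of 3 counts stood at 0.0776 to 0.135 CPM (counts scaled to the size of the library), and the lowest count of any of the 7 genes was 127. Levels are given as CPM scaled by TMM, a normalization that sets the typical gene equal between libraries. Markers of the sorted cells were present in all groups: the 11 HSC markers summed to between 3294 and 5268 CPM. Cd48 and Flt3, which the gate should lack, summed to between 11.1 and 33.8 CPM. The 4 B cell markers summed to at most 9.06 CPM and the 3 T cell markers to at most 0.191 CPM. The 4 Y-linked genes tested were read in the 18 libraries of young mice and had no count in any of the 3 libraries of old mice, so that age and sex cannot be told apart in comparisons of the old group.

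Per kilobase of the longest annotated transcript, Pfkm and Pfkl had means over the 21 libraries of 75.0 and 74.5 CPM per kb, and Pfkp stood at 16.2. Among the PFKFB genes, Pfkfb3 was at 34.3 CPM per kb, followed by Pfkfb2 at 8.99, Pfkfb1 at 5.12 and Pfkfb4 at 2.79. Expressed as shares of the family level per kb, Pfkl made up 45.01% ± 3.06 (SD, n = 21 libraries), Pfkm 45.2% ± 3.77 and Pfkp 9.78% ± 1.33. Pfkfb3 made up 66.9% ± 4.45 of the PFKFB level, Pfkfb2 17.4% ± 4.58, Pfkfb1 10.1% ± 4.61 and Pfkfb4 5.53% ± 1.33. The order of Pfkl and Pfkm and the share of Pfkp depend on the length used. With the union of annotated exons, Pfkm made up 55.3% and Pfkl 35.7%, and with coding length Pfkl made up 43.9%, Pfkm 34.1% and Pfkp 22.03%. The order of the PFKFB genes was the same with each of these lengths, with Pfkfb3 at 66.4% and 70.7%. Per kb of the longest transcript, Pfkfb3 held between 59.4% and 76.7% of the PFKFB level in each library. Of the exonic bases of Pfkfb2, 19.5% lie within exons of other genes (Gm29427 on the same strand and Yod1 on the other), and for Pfkm this is 10.7% (mostly Gm26513 on the same strand). For Pfkp it is 5.58% and for Pfkfb1 3.06%, with Pitrm1 and Apex2 on the other strand, and the strand setting of the counting is not given in the sources used here.

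**Figure D1:**
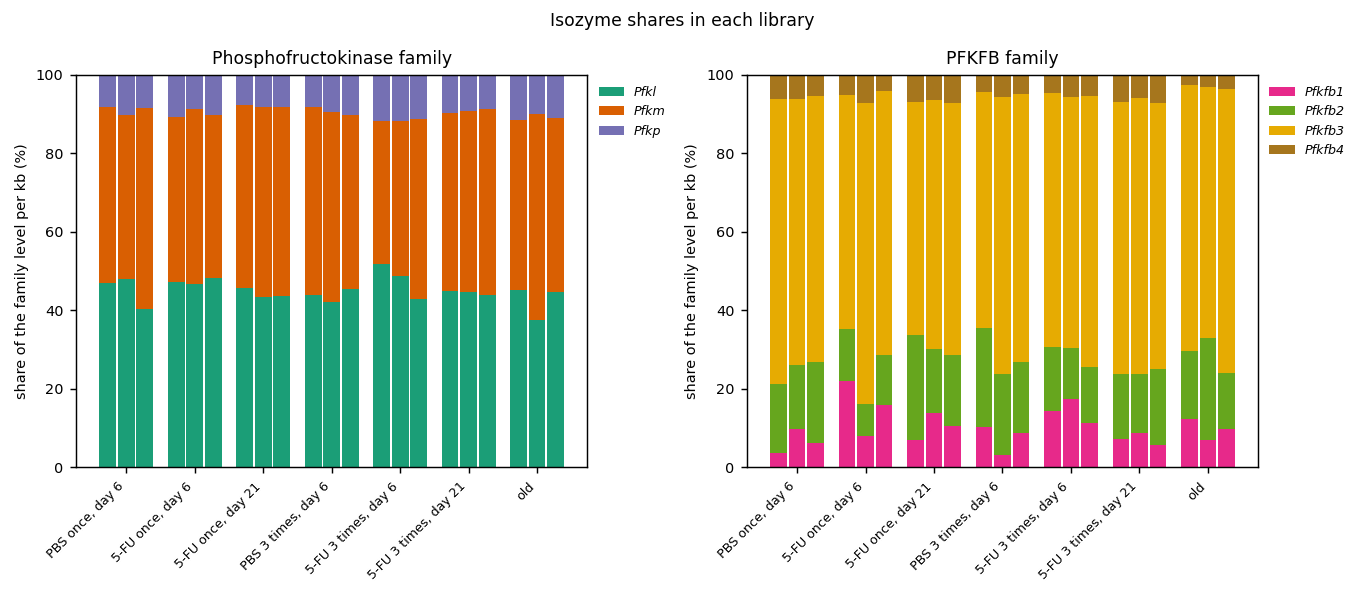
Each bar is a library, grouped by the 7 groups on the x axis, and its colours give each isozyme's percentage of the family level per kilobase of the longest transcript (y axis). With this length, Pfkl and Pfkm form most of the phosphofructokinase bar in all libraries, and Pfkfb3 holds 59.4% to 76.7% of the PFKFB bar.

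Summed per kb, the phosphofructokinase genes ranged over the group means from 157 CPM per kb in PBS once to 176 in 5-FU 3 times at day 6, and their libraries from 148 to 200.4. The PFKFB genes summed to 48.0 ± 3.37 CPM per kb (SD, n = 3) in PBS once, 41.3 ± 1.45 in 5-FU once at day 6, 50.7 ± 4.11 in 5-FU once at day 21, 49.3 ± 3.67 in PBS 3 times, 49.9 ± 2.03 in 5-FU 3 times at day 6, 53.9 ± 4.10 in 5-FU 3 times at day 21 and 65.2 ± 6.84 in old. The 3 old libraries, at 57.4 to 69.8, lay above the libraries of all other groups, which reached 57.0. These totals were not tested.

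Pfkp, the platelet isozyme, was higher at day 6 after 5-FU than with PBS, and had its highest group mean in 5-FU 3 times at day 6. In PBS once its level was 113, 131 and 123 CPM, in 5-FU once at day 6 it was 146, 143 and 147, and at day 21 it was 116, 126 and 124. After 3 administrations it was 121, 139 and 134 CPM with PBS, 167, 173 and 198 with 5-FU at day 6, and 129, 128 and 130.4 at day 21. The old libraries held 162, 141 and 157 CPM. All libraries at day 6 after 5-FU lay above their PBS controls and above day 21 of the same number of administrations. In order of the group means, 5-FU 3 times at day 6 (179 CPM) stood apart from old (153), old and 5-FU once at day 6 (145) overlapped, and these stood apart from PBS 3 times (132), 5-FU 3 times at day 21 (129), PBS once (122) and 5-FU once at day 21 (122), of which neighbours overlapped.

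Pfkl, the liver isozyme, varied within a narrower range and had its highest group mean in 5-FU 3 times at day 6. Its level was 277, 263 and 251 CPM in PBS once, 275, 325 and 295 in 5-FU once at day 6, and 290.2, 285 and 276 at day 21. With 3 administrations it was 277, 268 and 255 CPM with PBS, 313, 303 and 321 with 5-FU at day 6, and 254, 262 and 279 at day 21. The old libraries held 269, 229 and 269 CPM. The libraries of 5-FU 3 times at day 6 lay above those of PBS 3 times, whereas 5-FU once at day 6 overlapped PBS once, and every pair of neighbours in the order of the 7 group means overlapped. Pfkm, the muscle isozyme, ranged from 169 to 264 CPM over the 21 libraries, and both ends of that range lay within a single group, 5-FU 3 times at day 6.

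Pfkfb2 moved the other way, and was lowest at day 6 after 5-FU. It was at 40.4, 32.5 and 45.5 CPM in PBS once, at 25.3, 15.7 and 22.7 in 5-FU once at day 6, and at 55.8, 38.0 and 44.8 at day 21. After 3 administrations it was at 60.03, 41.9 and 40.5 CPM with PBS, at 38.1, 27.9 and 32.0 with 5-FU at day 6, and at 36.7, 37.1 and 49.8 at day 21. The old libraries held 54.7, 67.0 and 43.6 CPM, the highest group mean (55.1 ± 11.7, SD, n = 3). The 5-FU libraries of day 6 lay below their PBS controls with no overlap after 1 and after 3 administrations. In the order of the group means only the lowest group, 5-FU once at day 6 (21.3 CPM), did not overlap its neighbour, 5-FU 3 times at day 6 (32.7).

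Pfkfb3, the main kinase isozyme, had group means from 135 CPM (5-FU once at day 6) to 179 CPM (5-FU 3 times at day 21) in the treated groups. It was at 177, 144 and 159 CPM in PBS once, 120.4, 155 and 128 in 5-FU once at day 6, and 132, 155 and 168 at day 21. After 3 administrations it was at 152, 154 and 164 CPM with PBS, 160.4, 146 and 166 with 5-FU at day 6, and 164, 188 and 185 at day 21. The old libraries held 227, 177 and 238 CPM. Old had the highest mean (214 ± 32.7 CPM, SD, n = 3), but its lowest library was at the level of the highest PBS once library, and all neighbours in the order of the means overlapped.

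Pfkfb1 and Pfkfb4 were the minor PFKFB transcripts. Pfkfb1, which lies on the X chromosome, was at 4.89, 11.6 and 8.26 CPM in PBS once and at 24.8, 8.89 and 16.8 in 5-FU once at day 6. It was at 14.4, 3.94 and 11.6 CPM in PBS 3 times, at 19.96, 22.3 and 15.3 in 5-FU 3 times at day 6 and at 9.53, 13.2 and 8.62 in 5-FU 3 times at day 21. Libraries of a group lay far apart (3.94 to 14.4 CPM in PBS 3 times), and only 5-FU 3 times at day 6 lay wholly above its PBS control. Old held 22.8, 10.6 and 17.98 CPM, and 5-FU once at day 21 held 8.63, 18.7 and 15.4.

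Pfkfb4 was highest at day 21 after 5-FU. It was at 10.8, 9.66 and 9.29 CPM in PBS once, 7.73, 10.6 and 5.97 in 5-FU once at day 6, and 11.2, 11.4 and 13.8 at day 21. After 3 administrations it was at 8.10, 9.19 and 8.57 CPM with PBS, 8.52, 9.50 and 9.72 with 5-FU at day 6, and 12.1, 11.6 and 14.3 at day 21. Old held 6.71, 6.12 and 8.99 CPM, the lowest group mean. Both day 21 groups, with means of 12.2 and 12.7 CPM, lay above all the libraries of the other 5 groups, which reached 10.8 CPM.

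**Figure D2:**
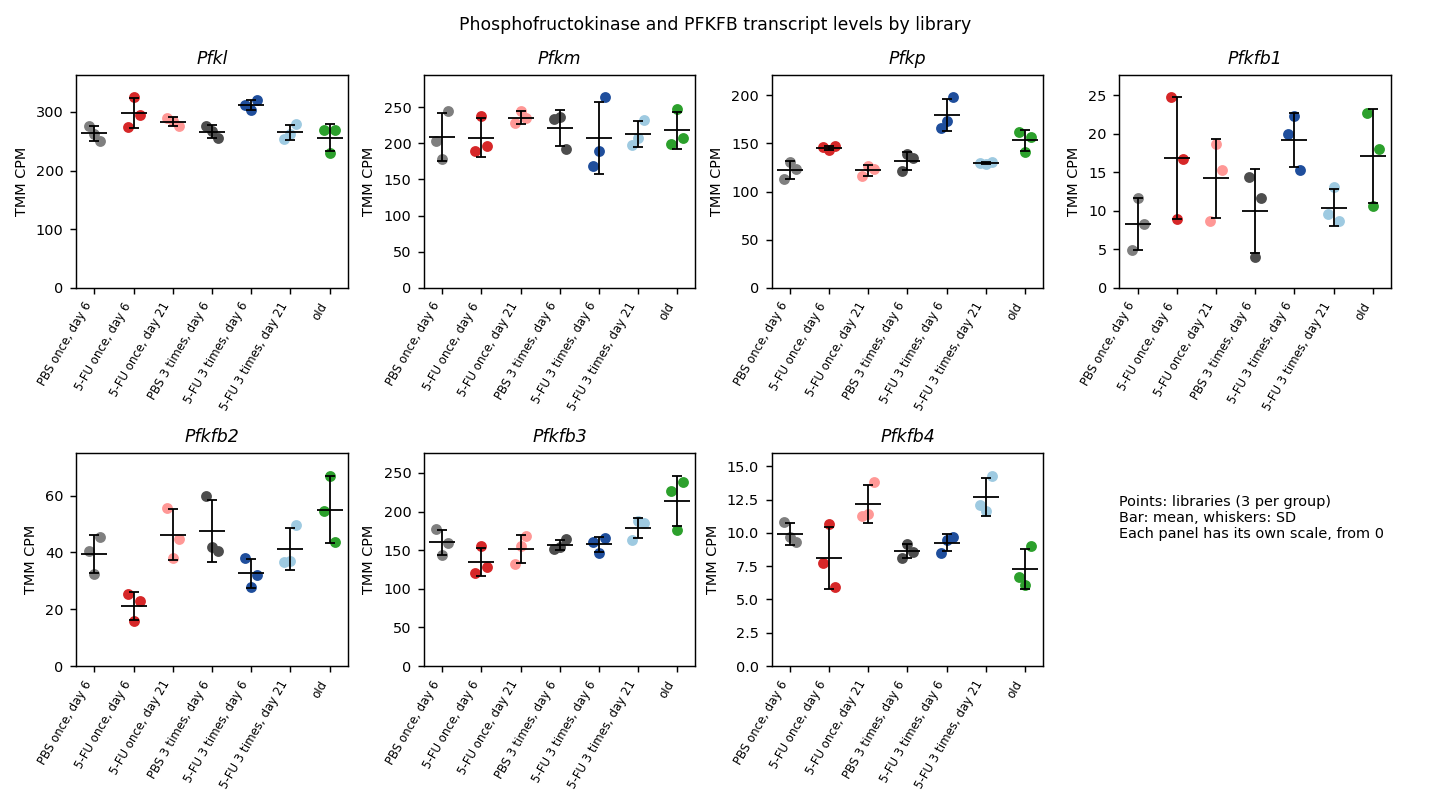
Each panel plots a gene's TMM-scaled CPM (y axis, from 0, with its own scale) in the 7 groups (x axis). Points are libraries, the bar is the mean and the whiskers the SD of 3. Pfkp is highest in 5-FU 3 times at day 6 (167 to 198 CPM), Pfkfb2 is lowest in 5-FU once at day 6 (15.7 to 25.3 CPM), and Pfkfb4 is highest at day 21.

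The first comparison asks how the transcripts of these enzymes differ in HSCs at day 6 after 5-FU. Averaged over 1 and 3 administrations in a fit of 12 libraries, Pfkp, Pfkl and Pfkfb1 rose and Pfkfb2 fell. Pfkfb2 fell by 0.73 ± 0.15 on the log2 scale (SE, adjusted p = 0.00267, edgeR), to 0.601 of the PBS level. Pfkp rose by 0.33 ± 0.06 (adjusted p = 0.0015, edgeR), Pfkl by 0.19 ± 0.05 (adjusted p = 0.0132, edgeR), and Pfkfb1 by 0.96 ± 0.33 (adjusted p = 0.041, edgeR). Pfkfb3 (log2 fold change -0.14 ± 0.07, adjusted p = 0.171, edgeR), Pfkfb4 (-0.11 ± 0.13, adjusted p = 0.522) and Pfkm (-0.07 ± 0.12, adjusted p = 0.703) did not pass the threshold of 0.05. Thus 4 of the 7 genes passed, 3 upward and 1 downward, where 37.3% of the 13227 genes tested passed, and the median log2 fold change was -0.07 over the 7 genes and -0.01 over all genes. Of all calls, 51.3% were upward, and 36.3% when libraries were scaled by library size alone. The call of Pfkfb1 was the weakest. It was lost without any one of 8 of the 12 libraries (PBS once 1 and 3, 5-FU once 1 and 3, PBS 3 times 2 and 3, 5-FU 3 times 1 and 2, at adjusted p between 0.0547 and 0.104, edgeR), by library size alone (0.053) and with a replicate block (0.0624). Pfkfb3 passed without replicate 2 of 5-FU once (adjusted p = 0.0438, edgeR) and by library size alone (adjusted p = 0.0317, edgeR).

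Within 1 administration, Pfkfb2 fell by 0.90 ± 0.19 on the log2 scale (adjusted p = 0.0185, edgeR) and was the only one of the 7 genes to pass, beside 22.2% of 12759 genes (52.0% of these calls were upward, and 41.0% by library size alone). It missed the threshold without replicate 3 of PBS once (adjusted p = 0.0557, edgeR). The log2 fold change of Pfkp was 0.24 ± 0.07 (adjusted p = 0.0538, edgeR), that of Pfkl 0.17 ± 0.08 (adjusted p = 0.169) and that of Pfkfb1 1.01 ± 0.42 (adjusted p = 0.122). Within 3 administrations, Pfkp rose by 0.42 ± 0.10 (adjusted p = 0.026, edgeR) and was the only one to pass, beside 18.1% of 12729 genes (54.2% upward, and 35.6% by library size alone, where Pfkp missed the threshold with adjusted p = 0.0552, edgeR). It missed the threshold without replicate 2 or 3 of 5-FU 3 times or replicate 1 or 3 of PBS 3 times (adjusted p between 0.0555 and 0.078, edgeR). The log2 fold change of Pfkfb2 was there -0.56 ± 0.18 (adjusted p = 0.0767, edgeR), that of Pfkl 0.21 ± 0.07 (adjusted p = 0.0753) and that of Pfkfb1 0.92 ± 0.42 (adjusted p = 0.176). By library size alone Pfkfb2 passed in place of Pfkp after 3 administrations (log2 fold change -0.66, adjusted p = 0.0343, edgeR). The difference between 1 and 3 administrations was tested as an interaction. None of the 7 genes passed (by edgeR 0 had an unadjusted p under 0.05, and DESeq2 called 0), beside 0.65% of 13227 genes (52.3% upward, and 35.1% by library size alone). PBS 3 times against PBS once gave no call among the 7 genes either (by edgeR 0 had an unadjusted p under 0.05, and DESeq2 called 0), beside 0.0156% of 12806 genes. The comparisons with a shared group are not independent of each other.

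Markers moved with treatment at day 6, where 37.3% of all genes tested passed. Of the 11 HSC markers, 3 rose and 4 fell, Kit among them (log2 fold change -0.65 ± 0.05, SE). The 11 HSC markers summed to 3294 to 3813 CPM in the 5-FU libraries of day 6 and to 4437 to 4970 CPM in the PBS libraries. Of the gate-excluded pair, Cd48 rose by 1.36 ± 0.15 and Flt3 had -1.58 ± 0.20. Of the 11 myeloid markers tested, 7 fell and none rose, and their 12 genes summed to 53.4 to 77.1 CPM in the 5-FU libraries of day 6 and to 92.9 to 153 CPM in the PBS libraries. Of the 6 megakaryocyte markers, 4 fell and 1 rose, with sums of 107 to 160.1 CPM against 165 to 202 CPM. Of the 4 erythroid markers tested, 1 rose and 2 fell, with a median log2 fold change of -1.64, while the 5 of the list summed to 17.4 to 47.7 CPM in the 5-FU libraries and to 9.23 to 26.3 CPM in the PBS libraries. The part of these shifts in the results on the 7 genes was not tested, and a change in the cells sorted and a change of RNA per cell cannot be told apart in bulk libraries.

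The second comparison asks whether the differences were still present at day 21. Between 5-FU at day 21 and PBS at day 6, averaged over 1 and 3 administrations, none of the 7 genes passed (by edgeR 1 had an unadjusted p under 0.05, and DESeq2 called 1, Pfkfb4 both times), where 4.85% of 13430 genes passed (43.8% upward, and 27.0% by library size alone). The log2 fold change of Pfkfb4 was 0.42 ± 0.12 (adjusted p = 0.0524, edgeR), that of Pfkfb1 0.43 ± 0.32 (adjusted p = 0.506), and the other 5 lay between -0.01 and 0.06. Pfkfb4 passed when replicate 2 or 3 of 5-FU once at day 6 was left out (adjusted p = 0.0204 and 0.0262, edgeR). These libraries are on neither side of the comparison and enter through the gene filter, the scaling and the spread of the shared fit. Within 1 administration no gene of the 7 passed (by edgeR 0 had an unadjusted p under 0.05, and DESeq2 called 0), beside 0.221% of 12647 genes (32.1% upward, and 20.5% by library size alone). Within 3 administrations none passed either (by edgeR 1 had an unadjusted p under 0.05, and DESeq2 called 0), beside 0.0475% of 12632 genes (83.3% upward, and 40.0% by library size alone).

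Set against 5-FU at day 6, the 5-FU libraries of day 21 had more Pfkfb2 and Pfkfb4 and less Pfkp and Pfkl. Averaged over 1 and 3 administrations, Pfkp fell by 0.34 ± 0.05 on the log2 scale (SE, adjusted p = 0.000145, edgeR) and Pfkl by 0.14 ± 0.05 (adjusted p = 0.0309, edgeR). Pfkfb2 rose by 0.74 ± 0.15 (adjusted p = 0.000973, edgeR) and Pfkfb4 by 0.54 ± 0.12 (adjusted p = 0.00209, edgeR). Pfkfb3 (log2 fold change 0.20 ± 0.08, adjusted p = 0.0528, edgeR), Pfkfb1 (-0.54 ± 0.31, adjusted p = 0.186) and Pfkm (0.13 ± 0.11, adjusted p = 0.369) did not pass. Hence 4 of 7 passed, where 40.7% of 13430 genes did, and the median log2 fold change was 0.13 over the 7 genes and 0.00 over all genes. Pfkl was not called without replicate 2 of 5-FU once at day 6, replicate 3 of 5-FU 3 times at day 6, replicate 3 of 5-FU once at day 21 or replicate 1 or 2 of 5-FU 3 times at day 21 (adjusted p between 0.0574 and 0.0917, edgeR), or by library size alone (adjusted p = 0.0603, edgeR). Pfkfb3 passed without replicate 1 of 5-FU once at day 21, replicate 1 of 5-FU 3 times at day 21 or replicate 2 of 5-FU once at day 6 (the lowest adjusted p being 0.0144, edgeR), by library size alone (adjusted p = 0.0176, edgeR) and by DESeq2 (adjusted p = 0.0335). Of the markers, 6 of 11 HSC markers and 7 of 11 myeloid markers tested rose between day 6 and day 21 after 5-FU and none of either list fell. Of the 4 erythroid markers tested 3 rose and 1 fell, of the 6 megakaryocyte markers 2 rose and 1 fell, Flt3 rose and Cd48 fell. The part of these shifts was not tested, and the comparison crosses the widened sorting gate of day 6. A suffix of unstated meaning ends the column names of PBS once and 5-FU once at day 6 (6 libraries) and of no other group. After 1 administration, the comparisons of day 21 with 5-FU at day 6 and with PBS cross it. Those of PBS 3 times and of old with PBS once cross it too, and the averages with day 21 cross it in part.

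After 1 administration the rise of Pfkfb2 from day 6 to day 21 was 1.13 ± 0.21 on the log2 scale (adjusted p = 0.00917, edgeR), and Pfkp fell by 0.25 ± 0.07 (adjusted p = 0.0426, edgeR), so that 2 of 7 genes passed beside 26.0% of 12589 genes. After 3 administrations, Pfkp fell by 0.47 ± 0.09 (adjusted p = 0.0127, edgeR), Pfkfb1 fell by 0.87 ± 0.20 (adjusted p = 0.0249, edgeR) and Pfkfb4 rose by 0.46 ± 0.13 (adjusted p = 0.0499, edgeR). That made 3 of 7 beside 19.5% of 12553 genes (44.4% upward, and 63.5% by library size alone). Pfkp after 1 administration and Pfkfb4 after 3 were each lost without any one of the 6 libraries (adjusted p between 0.0627 and 0.121, and between 0.0713 and 0.14, edgeR). Pfkfb1 after 3 administrations was lost without replicate 1 or 2 of day 6 or replicate 1 or 3 of day 21 (adjusted p between 0.0671 and 0.0785, edgeR), and in the fit of all 21 libraries (adjusted p = 0.169, edgeR). That fit (adjusted p = 0.0767), the filter of at least 1 count (0.0662) and a replicate block (0.0706) also ended the call of Pfkfb4 after 3 administrations by edgeR. For Pfkp after 1 administration the filter (adjusted p = 0.0508), the block (0.0708) and scaling by relative log expression (0.0572) did so by edgeR. After 1 administration, Pfkfb4 passed without replicate 2 of day 6 (adjusted p = 0.0409, edgeR).

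The third comparison sets old HSCs against those of PBS once. None of the 7 genes passed by edgeR, beside 1.88% of 12855 genes (76.4% upward, and 65.9% by library size alone), while 5 had an unadjusted p under 0.05 and 2 passed by DESeq2 (Pfkfb3 and Pfkp). The log2 fold change of Pfkfb3 was 0.42 ± 0.13 (adjusted p = 0.185, edgeR), that of Pfkp 0.33 ± 0.09 (adjusted p = 0.147) and that of Pfkfb2 0.48 ± 0.18 (adjusted p = 0.28). Pfkfb1 had 1.04 ± 0.36 (adjusted p = 0.232, edgeR) and Pfkfb4 -0.45 ± 0.19 (adjusted p = 0.333). Pfkl (-0.04 ± 0.09) and Pfkm (0.06 ± 0.14) differed least. The sizes varied over 15 alternatives, among them other controls for old and each library left out. The log2 fold change lay between 0.325 and 0.531 for Pfkfb3, between 0.21 and 0.376 for Pfkp and between 0.206 and 0.617 for Pfkfb2. It lay between 0.762 and 1.37 for Pfkfb1 and between -0.639 and -0.256 for Pfkfb4. The 6 megakaryocyte markers summed to 215 to 266 CPM in old and to 165 to 202 CPM in PBS once, and the 5 erythroid markers to 36.8 to 88.7 CPM and to 9.23 to 19.7 CPM. By gene, 1 of the 6 megakaryocyte markers passed, upward, and their median log2 fold change was -0.04. None of the 4 erythroid markers tested passed, and 1 of the 11 HSC markers did, upward. The old libraries had more Vwf and Ly6a and less Flt3 than PBS once (log2 fold changes 0.92 ± 0.11, 0.62 ± 0.07 and -1.02 ± 0.11), and their part in these values was not tested.

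**Figure D3:**
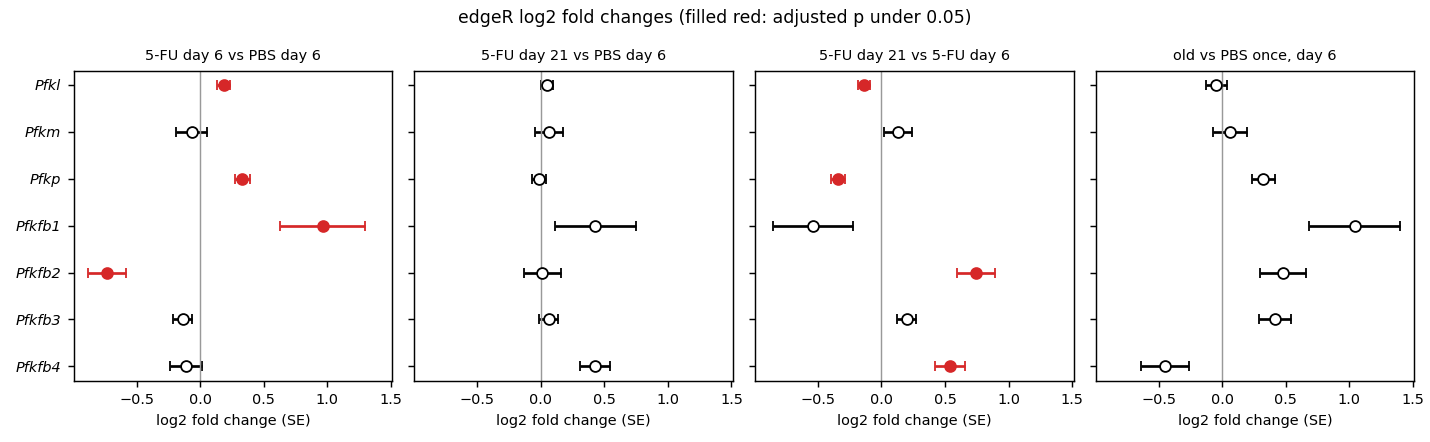
Log2 fold changes (x axis, with SE) of the 7 genes (y axis) in 4 comparisons, the first 3 averaged over 1 and 3 administrations. Filled red points passed an adjusted p of 0.05 by edgeR: 4 genes at day 6 against PBS, 4 between day 21 and day 6, and 0 in the other panels.

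A test of any difference among the 7 groups, over all 21 libraries, was passed by Pfkp (adjusted p = 0.000124, edgeR), Pfkfb2 (adjusted p = 0.00199), Pfkfb3 (adjusted p = 0.00588), Pfkfb4 (adjusted p = 0.0102) and Pfkl (adjusted p = 0.0258). Pfkfb1 (adjusted p = 0.177, edgeR) and Pfkm (adjusted p = 0.897) did not pass. This is 5 of 7, beside 37.6% of 13571 genes. Without the old group the adjusted p of Pfkfb3 was 0.0901 (edgeR). Pfkl was not called without replicate 2 of 5-FU once at day 21, replicate 3 of 5-FU once at day 6, replicate 1, 2 or 3 of 5-FU 3 times at day 6, replicate 2 of 5-FU 3 times at day 21, replicate 2 or 3 of PBS once or replicate 1 of PBS 3 times (adjusted p between 0.0506 and 0.111, edgeR), or by library size alone (adjusted p = 0.189, edgeR).

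The make-up of each family was compared next, as shares of the level per kb, with two-sided exact permutation tests within strata of administrations (6 libraries against 6, 400 assignments, smallest possible p 0.005) and adjustment over 21 tests. The shares of a family add up to 100%, so a change in an isozyme moves the shares of the others. Tests within a family are therefore not independent of each other. At day 6, the share of Pfkp was 10.9% with 5-FU and 9.15% with PBS, a difference of 1.70 percentage points (adjusted p = 0.045, exact permutation test, and 0.0556 without strata). The share of Pfkfb2 in its family was 12.96% against 19.7%, lower by 6.77 points in the difference of means (adjusted p = 0.035, exact permutation test), and that of Pfkfb1 was 14.8% against 6.97%, higher by 7.82 points (adjusted p = 0.045, exact permutation test). The share of Pfkfb3 was 66.8% against 67.8% (adjusted p = 0.869, exact permutation test).

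Between day 21 after 5-FU and PBS at day 6, 1 of 7 shares passed, that of Pfkfb4, with 6.80% against 5.49% (adjusted p = 0.035, exact permutation test). Between day 21 and day 6 after 5-FU, the share of Pfkp was 8.75% against 10.9% (adjusted p = 0.035, exact permutation test) and that of Pfkm 46.9% against 41.6% (adjusted p = 0.042, exact permutation test). The level of Pfkm itself did not pass there (adjusted p = 0.369, edgeR). The share of Pfkfb2 was 18.7% against 12.96% (adjusted p = 0.042, exact permutation test), and those of Pfkl and Pfkfb1 missed the threshold (adjusted p = 0.0933 and 0.0945, exact permutation tests). With a library left out the tests have fewer assignments, and each of these calls was lost without some libraries. At day 6, Pfkfb2 was lost without replicate 2 of 5-FU 3 times, replicate 1 of PBS 3 times or replicate 3 of PBS once (adjusted p = 0.0525 each, exact permutation tests). Pfkp was lost without any of the 12 libraries but replicate 3 of 5-FU 3 times, replicate 2 of PBS once and replicate 2 of 5-FU once, and Pfkfb1 without any but replicate 3 of 5-FU 3 times and replicate 2 of 5-FU once (adjusted p between 0.0525 and 0.128, exact permutation tests). At day 21 against PBS, Pfkfb4 was lost without replicate 1 of 5-FU once, replicate 1 or 3 of 5-FU 3 times, replicate 1 of PBS 3 times or replicate 3 of PBS once (adjusted p between 0.0525 and 0.063, exact permutation tests). Between day 21 and day 6, replicate 1 of 5-FU once and replicates 1 and 3 of 5-FU 3 times at day 21 and replicate 2 of 5-FU 3 times at day 6 each ended the calls of Pfkp, Pfkm and Pfkfb2. Replicate 2 of 5-FU 3 times at day 21 and replicates 1 and 3 of 5-FU once at day 6 also ended those of Pfkm and Pfkfb2, and replicate 2 of 5-FU once at day 6 that of Pfkfb2 (adjusted p between 0.0525 and 0.09 over these, exact permutation tests). The shares of the old group, with 3 libraries, were 42.4% ± 4.19 for Pfkl, 46.7% ± 5.06 for Pfkm and 10.9% ± 0.89 for Pfkp. They were 68.0% ± 4.12 for Pfkfb3, 19.2% ± 6.10 for Pfkfb2, 9.61% ± 2.64 for Pfkfb1 and 3.19% ± 0.52 for Pfkfb4 (SD, n = 3).

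The genes around the step give the setting of these values. Among the genes of the fructose phosphate node, 5 of 7 were tested at day 6 and 2 passed on average over 1 and 3 administrations: Aldoc, a fructose-bisphosphate aldolase, fell by 1.39 ± 0.15 on the log2 scale (adjusted p = 5.23e-05, edgeR), and Aldoa, the main aldolase, rose by 0.13 ± 0.04 (adjusted p = 0.0226, edgeR). By library size alone, or without replicate 3 of PBS 3 times, replicate 3 of PBS once or replicate 2 of 5-FU once, 1 node gene passed in place of 2. Of 19 other glycolysis genes tested, 8 rose and 2 fell (10 of 19, where 37.3% of all genes passed), with a median log2 fold change of 0.25 against -0.01 over all genes. The 4 with the smallest p were Pkm, pyruvate kinase (0.70 ± 0.05, adjusted p = 6.27e-06, edgeR), Ldha, lactate dehydrogenase A (0.54 ± 0.05, adjusted p = 1.63e-05), Gapdh (0.57 ± 0.05, adjusted p = 2.11e-05) and the hexokinase gene Hk2 (0.79 ± 0.09, adjusted p = 5.73e-05).

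Of 13 genes known to regulate PFKFB3 or PFKFB2, 5 rose and 1 fell, with a median of 0.11, and 6 of 13 is near the 37.3% of all genes. They include Prmt1, an arginine methyltransferase that modifies PFKFB3 (0.62 ± 0.04, adjusted p = 3.42e-06, edgeR), the AMPK subunit genes Prkab1 (0.37 ± 0.05, adjusted p = 0.000406) and Prkaa1 (0.24 ± 0.05, adjusted p = 0.00226), and Hif1a, the hypoxia-inducible transcription factor subunit (0.34 ± 0.07, adjusted p = 0.0027). The downward call was Prkaa2, an AMPK subunit gene too (-1.06, adjusted p = 0.0361, edgeR), which was named after its value was seen. Between day 21 and day 6 after 5-FU, 2 of 19 glycolysis genes rose and 11 fell (median -0.24), 1 node gene rose and 1 fell, and 4 regulators fell and none rose, where 40.7% of all genes passed. Between 5-FU at day 21 and PBS at day 6, 1 of 19 glycolysis genes passed, near the 4.85% of all 13430 genes tested. It was Ldha, which fell by 0.22 ± 0.05 (adjusted p = 0.0205, edgeR), and no regulator or node gene passed.

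**Figure D4:**
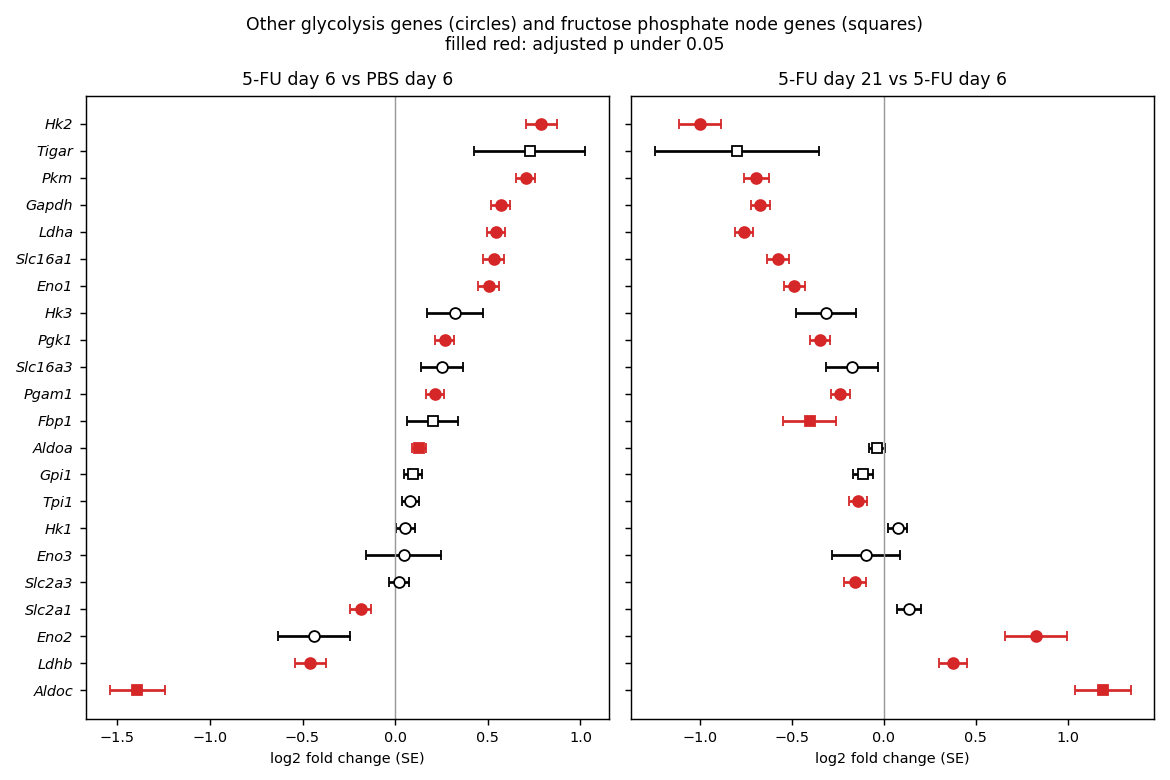
Log2 fold changes (x axis, with SE) of 22 other glycolysis and fructose phosphate node genes with a mean of at least 1 CPM (y axis), averaged over 1 and 3 administrations. Filled red points passed an adjusted p of 0.05 by edgeR. Hk2, Pkm, Gapdh and Ldha are higher at day 6 after 5-FU than with PBS and lower at day 21 than at day 6, and Aldoc goes the other way.

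Genes with the most similar pattern to each member were found by Pearson correlation of log2(CPM + 1) over the 21 libraries among 9267 genes with a mean of at least 10 CPM. The libraries share treatment groups and depth, and these values describe patterns only. For Pfkp they included Pla2g4a (r = 0.89), a cytosolic phospholipase, and Rpn2 (0.87), a subunit of the oligosaccharyltransferase. For Pfkfb2 they were Zbtb16 (r = 0.90), a zinc finger transcription factor, Itgb3 (0.88), an integrin subunit, and S1pr2 (0.86), a sphingosine phosphate receptor. For Pfkl they were Ndst1 (r = 0.84), Ssrp1 (0.84) and Coro1a (0.83), and for Pfkfb4 Arih1 (0.81), Vezf1 (0.79) and Wasf2 (0.78).

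For Pfkfb3 the nearest genes were Apol7e (r = 0.80), Apol7b (0.80) and Esyt2 (0.79). For Pfkfb1 they were Sgk1 (r = 0.75), Tex30 (0.75) and Mrps12 (0.74), and for Pfkm Clasp1 (0.69), Dennd4b (0.69) and Med23 (0.69). No member was among the 3 nearest genes of another, and Pfkfb4 could not be, as its mean of 9.71 CPM lies under the limit of 10 CPM. Between members, r over the 21 libraries ranged from -0.58 (Pfkl and Pfkfb2) to 0.54 (Pfkp and Pfkfb1).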

How the data were processed

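The authors aligned single-end reads of SMART-Seq libraries with TopHat2 2.0.13 to mm10 and quantified expression with Cuffdiff of Cufflinks 2.2.1, per the labels and the study's methods, and deposited whole-number counts per gene symbol without normalization. The program that made the counts is not given in the sources used here. All 21 columns were matched to samples by their names. The 3 libraries of a group came from independent experiments per the study's methods.

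Using edgeR 4.0.16 (R 4.3.3), quasi-likelihood models (glmQLFit, glmQLFTest) were fitted to the counts after filterByExpr and TMM, for each pair of groups (6 libraries), for the day 6 average and interaction (12 libraries) and for all 7 groups (21 libraries), with Benjamini-Hochberg adjustment over all genes tested and a threshold of 0.05. The averages with day 21 (18 libraries) were added after seeing the data. Standard errors were the log2 fold change divided by the square root of F. Isozyme shares were computed from counts per kilobase of the longest GENCODE vM21 transcript (GRCm38) and tested by exact permutation. The edgeR steps were tested on simulated data. Promoter sequences are from RefSeq (GRCm38.p6). Alternatives were relative log expression or library size scaling, filters of at least 1 count or a mean of 10 counts, DESeq2 1.42.0, a replicate block, all libraries in a single fit, other controls for old, other lengths for the shares, and each library left out.

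Named genes are the 7 members, the 3 genes most alike to each, and from each pathway list up to 4 genes past the threshold at day 6 with the smallest p, of which 1 gene most alike to Pfkp is not reported here. Marker genes named, Prkaa2, and Ldha at day 21, were chosen after their values were seen. The members and lists were chosen with earlier results of these data known. Total counts ranged from 22184885 to 38649033 per library.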

Additional observations from a re-analysis of the deposited data

How the results depend on the processing

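Replicate numbers did not pair the libraries: deviations of same-numbered libraries correlated between -0.03 and 0.06 over genes. With a replicate block, Pfkfb2 joined Pfkp after 3 administrations at day 6 (2 calls in place of 1), 1 gene in place of 2 passed between day 21 and day 6 after 1 administration, and none of the shares passed in any of the 3 comparisons (0 in place of 3, 1 and 3), at adjusted p of 0.131 or more for the shares called otherwise. The sign flips of 6 pairs allow so few arrangements that a share could pass after adjustment only if most of the 21 tests reached the smallest p, so these lost calls say nothing about stability. DESeq2 and the single fit of 21 libraries each called 2 of the 7 genes at day 6 after 1 administration in place of 1, and 3 and 2 after 3 administrations in place of 1. For old against PBS once they called 2 and 1 in place of 0, and DESeq2 called 1 in place of 0 for the average of day 21 against PBS. Between day 21 and day 6 after 1 administration, relative log expression and the filter of at least 1 count gave 1 call in place of 2. The cause of these moves was not tested. With a library left out, the calls among the 7 genes ranged from 0 to 1 at day 6 after 1 and after 3 administrations and for the average of day 21 against PBS, from 1 to 2 between day 21 and day 6 after 1 or 3 administrations, from 3 to 5 in both averages that involve 5-FU at day 6, and the shares from 0 to 4, 0 to 1 and 0 to 4. Log2 fold changes near zero turned sign: Pfkm in old was -0.0286 against PBS 3 times and between -0.0465 and 0.19 with a library left out. Pfkfb2 at day 21 against PBS was -0.0245 by library size alone and between -0.068 and 0.11 with a library left out, and Pfkp there between -0.0423 and 0.0117. Pfkl lay between -0.0896 and 0.0228 in old and between -0.12 and 0.00973 from day 6 to day 21 after 1 administration, and Pfkm between -0.17 and 0.000722 at day 6. Over all genes, DESeq2 called 726, 573, 825, 531, 692 and 1233 genes for day 21 once, day 21 after 3 administrations, old, PBS 3 times, the interaction and the day 21 average, where edgeR called 28, 6, 242, 2, 86 and 651. For day 21 once, library size scaling, the block and the fit of 21 libraries gave 83, 3 and 257 calls, and for day 21 after 3 administrations 15, 0 and 185, with 3 by relative log expression or a mean of at least 10 counts. The block gave 1509 in place of 2310 at day 6 after 3 administrations, 104 for old (128 against PBS 3 times), 0 for PBS 3 times (19 in the fit of 21 libraries) and 55 for the interaction. With a library left out, and so fewer samples, the calls over all genes were 1563 to 1947 at day 6 after 1 administration in place of 2827 and 1231 to 1582 after 3 in place of 2310. They were 111 to 150 for old, 38 to 170 for the interaction, 1736 to 2978 and 1351 to 1744 between day 21 and day 6 after 1 and 3 administrations (3272 and 2450), and 415 to 612 for the day 21 average. For day 21 once they were 1 to 3 without replicate 1 of that group or any PBS once library, 18 without replicate 3 and 32 without replicate 2, and for day 21 after 3 administrations 1 to 4 without any of the 6 libraries. Isozyme shares called kept their direction and side of the threshold with each other length and by counts. By library size alone the median gene moved by -0.11 after 3 administrations at day 6 and by 0.12 from day 6 to day 21 after 3 administrations. By Spearman correlation the 3 genes most alike to Pfkl and to Pfkfb3 shared 0 with those named, and by correlation of the 7 group means those of Pfkl, Pfkm, Pfkfb3 and Pfkfb4 shared 0. With 3 libraries in a group, single outlying libraries were not tested for.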
